A study of Mus musculus with 13 samples.

Results

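The genes described here are 10 genes of detoxification and of the aryl hydrocarbon receptor response, chosen by name from the gene tables of 3 drug treatments of cultured mouse astrocytes. They are the aryl hydrocarbon receptor genes Cyp1b1, Ahrr and Tiparp, the aldehyde and carbonyl enzymes Aldh3a1 and Cbr3, the glutathione transferases Gsta4, Gstm1 and Gstp1, and the metallothioneins Mt1 and Mt2. Of these 10 genes 8 were in at least 1 of the tables, which together hold 1593 genes. The HLM006474 table held 7 of the 10, all higher than in vehicle, where 5.64% of all genes tested were listed and 1.42% were listed as higher. The table of an inhibitor of RUNX1 held 0, where 2.93% were listed. The SB431542 table held 2, with Ahrr higher and Cyp1b1 lower, where 4.93% were listed. Gstp1 and Tiparp were in no table. Because the 10 genes were chosen with earlier results of these data known, these counts are a description.

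RNA was sequenced from 13 samples of primary astrocytes, the glia that feed and support neurons. They were grown from the retina and optic nerve of C57BL/6 mice of wild-type genotype, aged 1 to 3 days after birth. The groups were HLM006474 with 3 samples, an inhibitor of RUNX1 and its partner CBFB (the RUNX1 inhibitor below) with 3, SB431542 with 3 and vehicle with 4, each given its agent for 24 h, and all cultures were in medium with 10% serum. HLM006474 inhibits the E2F family of transcription factors, RUNX1 with CBFB is a transcription factor pair, and SB431542 inhibits the kinase activity of TGF-beta and activin type I receptors. The labels give neither doses nor whether samples of a group came from different animals or dishes, so the p-values reflect sample spread that could be technical only.

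The aryl hydrocarbon receptor (AHR) is a transcription factor that many planar aromatic compounds bind. It pairs with ARNT on DNA and turns on genes of oxidation and conjugation, together with its own brakes, the repressor encoded by Ahrr and the ADP-ribosyltransferase encoded by Tiparp. Other detoxification genes, among them many glutathione transferases and reductases, answer to NRF2, which is released from KEAP1 by electrophiles, and metallothioneins answer to the zinc sensor MTF1. Astrocytes are a main site of glutathione and metallothionein production in the brain.

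The values are the authors' log2 fold changes over vehicle with their standard errors, so no value per sample, SD or library depth can be given. A gene was in a table when its adjusted p was under 0.05 and its fold change was at least about 1.5 in either direction, with a smallest absolute log2 fold change of 0.58 in each table. A gene outside a table therefore either changed less than this, was too variable, or had too few reads to be tested. Of 15169 genes tested for HLM006474, 1.42% were listed as higher and 4.22% as lower, and of 15169 for SB431542, 2.29% as higher and 2.64% as lower. For the RUNX1 inhibitor 13561 genes were tested.

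**Figure D1:**
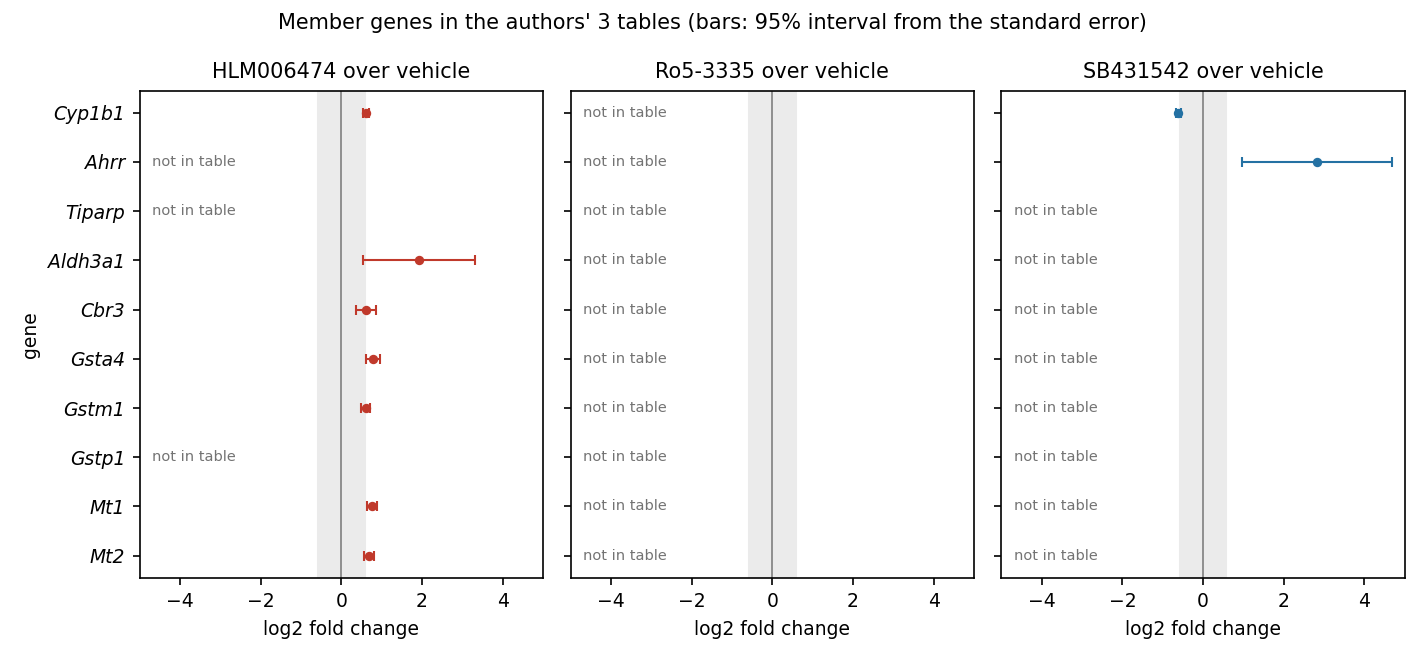
Log2 fold change over vehicle (x axis) of each of the 10 genes (y axis) in the 3 tables, for HLM006474, the RUNX1 inhibitor (labelled there by its compound code) and SB431542 from left to right, with 95% intervals from the authors' standard errors and the range below the tables' fold limit in grey. All 7 genes listed for HLM006474 lie to the right of 0, none is listed for the RUNX1 inhibitor, and Cyp1b1 lies to the left of 0 for SB431542.

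Cyp1b1 encodes a cytochrome P450 that oxidises aromatic hydrocarbons, oestrogens and retinoids, and is a target of AHR. It was higher under HLM006474 and lower under SB431542. With HLM006474 its log2 fold change was 0.61 ± 0.034 (standard error), or 1.52-fold with a 95% interval of 1.46 to 1.59, in the authors' deposited table (adjusted p = 2.53e-69). With SB431542 it was -0.61 ± 0.035, or 0.654 of the vehicle level with a 95% interval of 0.624 to 0.686, in the authors' deposited table (adjusted p = 1.21e-65). The changes were thus of similar size in opposite directions. Of all 856 genes in the HLM006474 table Cyp1b1 had the smallest standard error and the 7th lowest p, while by size of change it was 196th of the 216 higher genes. The log2 fold changes under the 2 compounds differed by 1.22 ± 0.049, with a 95% interval of 1.12 to 1.31 (2-sided z test, adjusted p = 9.59e-137 over the 161 genes in both tables). Such a difference passed for 32.9% of those 161 genes, 20 of the 161 moved in opposite directions, and both comparisons share the vehicle samples. A gene past the limits of both tables in opposite directions is set apart by those limits alone. The test thus adds only the size of the difference. Cyp1b1 was the only one of the 10 genes in both tables.

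The gene lies on the minus strand at chr17:79701537-79715061 (GRCm38, GENCODE M21). Its mean normalised count over all libraries was 6681, or 1144 per kilobase of exon. That level per kilobase was 28th of 847 genes of the HLM006474 table with a length, whose median was 41.4. Because these are whole cultures, fewer cells of a type and less RNA per cell cannot be told apart here.

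Ahrr encodes a repressor that competes with AHR for ARNT. In the SB431542 table its log2 fold change was 2.82 ± 0.95, a 7.06-fold rise with a 95% interval of 1.95 to 25.6 (adjusted p = 0.0185 in the authors' deposited table). It was the 10th largest of the 347 rises in that table by size, but the gene was near the low end of detection, with a mean count of 10.1, or 1.07 per kilobase of exon. By level per kilobase it was 740th of 742 genes in that table with a length. Without values per sample, whether each SB431542 sample shared this rise is not known. Cyp1b1 and Ahrr, both AHR targets, thus moved in opposite directions under SB431542. Outside the HLM006474 table, Ahrr could still have had a log2 fold change of up to 2.36 at the same standard error, so its absence there sets no tight limit. In the RUNX1 inhibitor table the smallest mean count was 21.6, above that of Ahrr, so its absence there gives no information on a change.

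Tiparp, the ADP-ribosyltransferase that feeds back on AHR, was in none of the 3 tables. Its level in these cultures is therefore not known. Its exons overlap those of an annotated pseudogene on the opposite strand over 223 bases, and reads of the 2 cannot be told apart without strand.

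The promoters of Cyp1b1 and Ahrr are shown because these genes moved under SB431542, in opposite directions. Each line gives 250 bases before and 50 after the RefSeq start (GRCm38.p6), 5′ to 3′ on the gene's strand. Capitals mark matches, on either strand, to the AHR element core GCGTG, the antioxidant element TGACNNNGC of NRF2, and the metal element of MTF1, searched as TGCACNC and TGCGCNC. Cyp1b1 is at chr17:79715012-79715311 and Ahrr at chr13:74292282-74292581, both on the minus strand.
Cyp1b1: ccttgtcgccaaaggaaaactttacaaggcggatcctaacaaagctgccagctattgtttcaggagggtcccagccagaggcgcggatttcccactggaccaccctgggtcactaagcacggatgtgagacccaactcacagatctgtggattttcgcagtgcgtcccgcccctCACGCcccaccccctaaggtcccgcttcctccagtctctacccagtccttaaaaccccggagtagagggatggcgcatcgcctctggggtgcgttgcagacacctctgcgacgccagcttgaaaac
Ahrr: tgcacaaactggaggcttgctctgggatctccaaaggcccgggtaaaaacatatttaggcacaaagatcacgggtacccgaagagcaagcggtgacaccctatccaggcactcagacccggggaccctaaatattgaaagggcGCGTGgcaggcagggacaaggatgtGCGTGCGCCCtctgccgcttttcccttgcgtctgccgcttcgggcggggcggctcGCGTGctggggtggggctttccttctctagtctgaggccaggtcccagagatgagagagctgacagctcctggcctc

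The Cyp1b1 window held 1 AHR core, on the opposite strand at -76 to -72. The Ahrr window held 3 AHR cores, of which the middle one, at -82 to -78, overlapped a metal element at -79 to -73. Neither window held a match to TGACNNNGC, the only spelling of the antioxidant element that was searched. Of 32851 promoter windows of 300 bases, 32.4% held at least 1 AHR core, 12.4% the antioxidant element and 25.7% a metal element. A match describes the letters only.

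**Figure D2:**
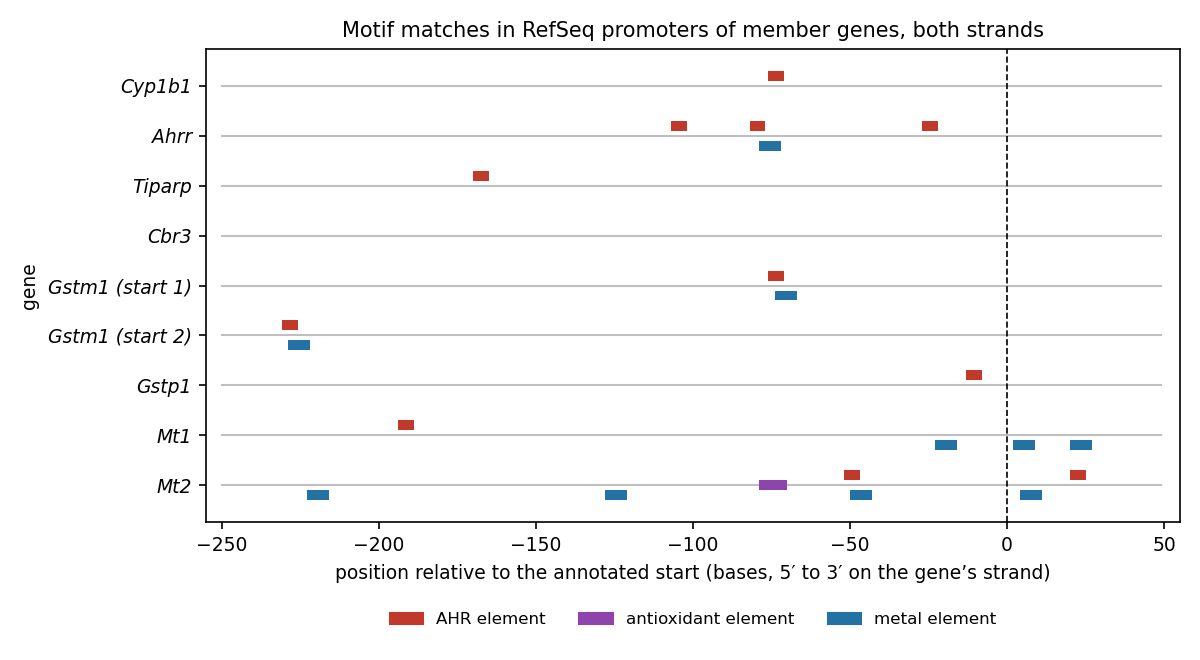
Matches to the AHR, antioxidant and metal elements on either strand (coloured bars) in the RefSeq promoter windows of the 8 genes that had one (y axis), by distance in bases from the annotated start (x axis, dashed line at 0). Gstm1 has 2 annotated starts. Mt1 holds 3 metal elements and Mt2 holds 4, and the Cbr3 window holds no match.

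Aldh3a1 encodes an aldehyde dehydrogenase that oxidises aromatic and lipid-derived aldehydes and is a classical AHR target in rodents. Under HLM006474 its log2 fold change was 1.92 ± 0.71, a 3.79-fold rise with a 95% interval of 1.45 to 9.89 (adjusted p = 0.0292 in the authors' deposited table). This was the largest of the 7 changes and the least precise, since the mean count was 9.12, or 4.69 per kilobase of exon. The rise did not meet an adjusted p under 0.01. At the same standard error, the p limit of the SB431542 table would keep Aldh3a1 out at any log2 fold change under 1.81. Its mean count was below the smallest in the RUNX1 inhibitor table.

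Cbr3 encodes a carbonyl reductase that reduces quinones and other carbonyls with NADPH. Its log2 fold change under HLM006474 was 0.61 ± 0.12, or 1.52-fold with a 95% interval of 1.29 to 1.81 (adjusted p = 1.66e-05 in the authors' deposited table). The mean count was 371, or 296 per kilobase of exon. It lies on the plus strand at chr16:93683215-93690990 (GRCm38). Its 300-base window held no match to any of the 3 elements.

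Glutathione transferases join glutathione to electrophiles. Gsta4, an alpha-class enzyme known for its activity on the lipid peroxidation product 4-hydroxynonenal, stood at 0.78 ± 0.086 under HLM006474, 1.71-fold with a 95% interval of 1.53 to 1.93 (adjusted p = 1.22e-17 in the authors' deposited table). Gstm1, a mu-class enzyme, stood at 0.60 ± 0.052, 1.51-fold with a 95% interval of 1.41 to 1.63 (adjusted p = 4.02e-28 in the authors' deposited table). Gsta4 was thus past the fold limit over its whole interval, while that of Gstm1 spanned the limit. Per kilobase of exon, the mean count was 9397 for Gstm1 and 1635 for Gsta4. Gstp1, the pi-class enzyme, was in no table.

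Gene families of this kind share sequence. Of the 50-base stretches in Gstm1 transcripts 18.9% also occur in transcripts of 5 other genes, mostly Gstm2-ps1 and Gstm3, so the count of Gstm1 can include reads of these copies. For Gstp1 the share was 33.7%, mostly with Gstp2 and Gstp-ps. No stretch of Gsta4, Mt1, Mt2, Aldh3a1 or Cyp1b1 was shared with another gene.

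Mt1 and Mt2 encode small cysteine-rich proteins that bind zinc and copper and scavenge radicals. Under HLM006474, Mt1 stood at 0.76 ± 0.067, 1.69-fold with a 95% interval of 1.54 to 1.85 (adjusted p = 1.20e-27 in the authors' deposited table). Mt2 stood at 0.69 ± 0.066, 1.61-fold with a 95% interval of 1.47 to 1.76 (adjusted p = 3.35e-23 in the authors' deposited table). Their intervals overlap widely. Both were among the most abundant listed genes per kilobase of exon, with mean counts of 27465 for Mt2, 2nd of 847 genes in the HLM006474 table, and 12675 for Mt1, 9th. The Mt1 model includes a retained intron, which makes its exon length longer and its level per kilobase lower. Mt2 overlaps the exons of an antisense gene, Gm45774, over 432 bases, and reads of the 2 cannot be told apart without strand.

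The metallothionein genes are neighbours on the plus strand, Mt2 at chr8:94172664-94173568 and Mt1 at chr8:94179082-94180327 (GRCm38), 5513 bases apart with 0 annotated genes between them. Their promoters are shown because the pair rose together and because metal elements are the known inputs to these genes. Capitals mark the same 3 elements as above. Mt1 is at chr8:94178839-94179138 and Mt2 at chr8:94172368-94172667 (RefSeq, GRCm38.p6).
Mt1: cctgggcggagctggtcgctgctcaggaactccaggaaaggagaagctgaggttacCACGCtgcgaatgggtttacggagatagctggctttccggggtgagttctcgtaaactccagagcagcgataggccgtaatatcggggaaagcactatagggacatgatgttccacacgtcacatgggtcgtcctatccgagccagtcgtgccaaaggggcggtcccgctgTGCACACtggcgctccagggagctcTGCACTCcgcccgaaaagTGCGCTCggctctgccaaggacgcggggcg
Mt2: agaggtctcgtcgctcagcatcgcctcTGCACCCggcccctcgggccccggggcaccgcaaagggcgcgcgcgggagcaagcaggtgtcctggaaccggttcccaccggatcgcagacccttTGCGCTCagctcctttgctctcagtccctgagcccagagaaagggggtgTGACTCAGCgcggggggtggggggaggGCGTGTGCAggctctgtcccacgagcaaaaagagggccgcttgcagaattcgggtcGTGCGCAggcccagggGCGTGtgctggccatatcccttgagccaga

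The Mt1 window held 3 metal elements, at -23 to -17, 2 to 8 and 20 to 26, and 1 AHR core. Positions count from the annotated RefSeq start, and the start used in these cultures was not analysed here. Bases beyond the window were not searched. The Mt2 window held 4 metal elements, 2 AHR cores and a match to TGACNNNGC at -79 to -71. No other window of the 8 genes with a promoter sequence matched those letters. Variants of the antioxidant element with other fixed bases were not searched, so other windows may hold them. In Mt2, the AHR core at -52 to -48 overlaps a metal element read from the opposite strand.

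Among the 7 genes that rose with HLM006474, the 6 with a mean count of at least 100 lay between 1.51-fold and 1.71-fold. The lower end is set by the fold limit of about 1.5, below which a gene is not listed. Aldh3a1, left out by its count, stood at 3.79-fold. The median log2 fold change of the 7 was 0.69, below the 0.80 of all 216 higher genes, and 6 of the 7 were below that value. The 95% intervals of 7 of the 7 excluded 0, which the limit on adjusted p makes certain for any listed gene. Those of 2, Gsta4 and Mt1, lay wholly above the fold limit. At a log2 fold change of at least 1, Aldh3a1 alone would be listed. Cyp1b1, Gstm1, Mt1 and Mt2 had mean counts of 6681 or more and standard errors of 0.067 or less.

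**Figure D3:**
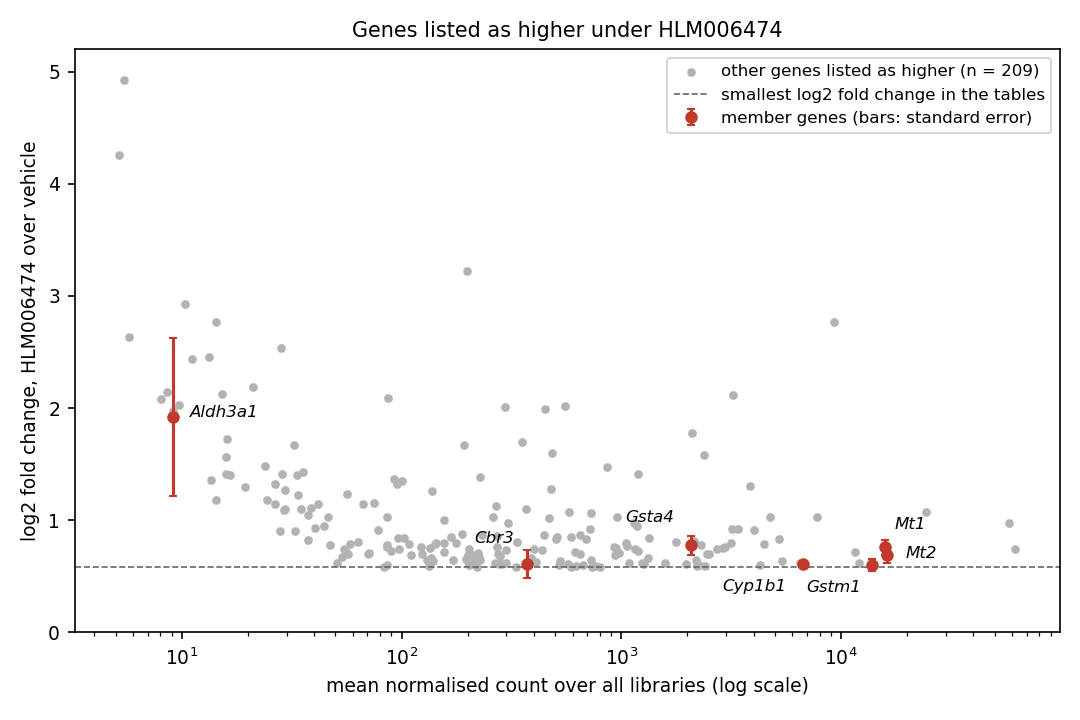
Log2 fold change of HLM006474 over vehicle (y axis) against mean normalised count over all libraries (x axis, log scale) for the 216 genes listed as higher, with the 7 genes described here in red and their standard errors as bars. All but Aldh3a1, at a mean count of 9.12, sit near the dashed fold limit, and Gstm1, Mt1 and Mt2 have mean counts of 13842, 15793 and 16149.

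The 6 genes that could be compared were not shown to respond more to HLM006474 than to the RUNX1 inhibitor. The error of this test leaves out the shared vehicle samples, which can make it too large. A reduced error was not run for it. None of the 10 genes was in the RUNX1 inhibitor table, where 2.93% of genes tested were listed. Had the 6 of the 7 genes with enough reads been just under the RUNX1 inhibitor fold limit, the excess under HLM006474 would be largest for Gsta4, at 0.20 ± 0.12, and Mt1, at 0.18 ± 0.094. Neither passed (1-sided z test, adjusted p = 0.284 for Gsta4 and 0.203 for Mt1 over 569 genes), nor did the other 4, while 6.85% of those 569 genes did. The excess of Cbr3, Cyp1b1 and Gstm1 was only 0.027, 0.027 and 0.019. Genes so close to the fold limit cannot pass, so the test could not decide for them. Against the SB431542 limit none of 6 genes passed either (lowest adjusted p = 0.210, for Mt1, 1-sided z test over 694 genes), where 7.06% of genes did. Cbr3 and Gstm1 were again too close to the fold limit for the test to decide. The excess of Aldh3a1 over the p limit, 0.11 ± 0.998, was too imprecise to decide. The fall of Cyp1b1 under SB431542 was likewise within error of the RUNX1 inhibitor limit (1-sided z test, adjusted p = 0.459), where 21.5% of 573 genes passed. Its excess of 0.032 was also too small for the test to decide. The rise of Ahrr under SB431542 was within error of the HLM006474 limit (1-sided z test, adjusted p = 0.493), where 16% of 587 genes passed. Its excess of 0.46 ± 1.34 was too imprecise for the test to decide.

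The wider detoxification lists hold 91 further genes, of which the HLM006474 table had 14, or 15.4%, with 9 higher and 5 lower, beside 5.64% of all genes tested. The RUNX1 inhibitor had 1, lower, or 1.1% beside 2.93% of all genes tested, and SB431542 had 3, all higher, or 3.3% beside 4.93%, so neither share was above that of all genes. The lists were written with earlier results of these data known, so their counts are a description. Of the AHR complex genes Ahr, Arnt, Arnt2, Ptges3, Hsp90aa1 and Hsp90ab1, 0 of 6 were in any table.

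Of 10 AHR targets 4 were higher under HLM006474 and 0 lower, beside 1.42% and 4.22% of all genes tested. They were Nqo1, Ugt1a6a and, from the 10 genes described here, Cyp1b1 and Aldh3a1. The quinone reductase gene Nqo1, which is also an NRF2 target, stood at 1.99 ± 0.13 in the authors' deposited table. Ugt1a6a, a glucuronosyltransferase whose locus shares exons with other Ugt1a genes, stood at 0.92 ± 0.10 in the authors' deposited table. The classical targets Cyp1a1 and Cyp1a2 were in no table. Under SB431542 the list had Ahrr, higher, and Cyp1b1, lower, beside 4.93% of all genes tested.

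Of 25 glutathione transferase genes 4 were higher and 1 lower under HLM006474, beside 1.42% and 4.22% of all genes tested. Gsta3, an alpha-class enzyme, stood at 2.53 ± 0.41 with a mean count of 28.3, and microsomal Mgst1 at 0.76 ± 0.085, in the authors' deposited table. The authors' deposited table had the theta-class gene Gstt1 lower, at -0.77 ± 0.14. In the authors' deposited table for SB431542, Hpgds, the haematopoietic prostaglandin D synthase, was the 1 listed gene and stood at 1.01 ± 0.20. For SB431542 4.93% of all genes tested were listed.

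Of 10 metallothionein and zinc genes 3 were higher under HLM006474 and 0 lower, beside 1.42% and 4.22% of all genes tested. The third was Slc30a1, a zinc exporter of the plasma membrane, at 0.74 ± 0.045 in the authors' deposited table (adjusted p = 3.22e-58). Mt1, Mt2 and Slc30a1, all known MTF1 targets in mice, thus lay within 0.69 to 0.76. None of the 10 was in the other 2 tables, where 2.93% (RUNX1 inhibitor) and 4.93% (SB431542) of all genes tested were listed. At such shares an absence of 10 genes is not read as a result.

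Of 16 carbonyl and aldo-keto reductase genes, Cbr3 was higher and Cbr2 lower under HLM006474, beside 1.42% and 4.22% of all genes tested. Cbr2, a carbonyl reductase best known from mouse lung, stood at -1.16 ± 0.35 under HLM006474 and at 0.86 ± 0.30 under SB431542 in the authors' deposited tables. The difference between the compounds was -2.02 ± 0.46, with a 95% interval of -2.93 to -1.11 (2-sided z test, adjusted p = 7.83e-05 over the 161 genes in both tables). The mean count of Cbr2 was 30.2. Cbr2 and Cyp1b1 were the only genes of the detoxification lists in both tables, and each moved in opposite directions under the 2 compounds. They are among the 20 of the 161 genes in both tables that did so.

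Of 20 aldehyde dehydrogenase genes 1, Aldh3a1, was higher and 2 lower under HLM006474, beside 1.42% and 4.22% of all genes tested. In the authors' deposited table Aldh1a2, which makes retinoic acid, had -0.75 ± 0.16 and mitochondrial Aldh1b1 had -0.59 ± 0.21. Under SB431542 Aldh1a7 stood at 0.74 ± 0.14 in the authors' deposited table. Each of the reductase, dehydrogenase and transferase lists thus had a member on either side under HLM006474. With 1 or 2 genes lower in each, beside 4.22% of all genes tested, this is not read as a trait of these families.

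Of 17 other conjugation and export genes 6 were higher and 1 lower under HLM006474, beside 1.42% and 4.22% of all genes tested. The 6 include Nqo1 and Ugt1a6a, also counted among the AHR targets above. The transporter genes Abcc4, Abcc3 and Abcc1, which export conjugates, had log2 fold changes of 0.98 ± 0.095, 0.72 ± 0.11 and 0.69 ± 0.078 in the authors' deposited table. Ephx1, the microsomal epoxide hydrolase, stood at 0.72 ± 0.056 in the authors' deposited table. The sulfotransferase gene Sult1a1 was lower, at -0.97 ± 0.30 in the authors' deposited table. Of all the detoxification lists the RUNX1 inhibitor had 1 listed gene, the transporter gene Abcg2, with a log2 fold change of -0.64 ± 0.13 in the authors' deposited table.

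**Figure D4:**
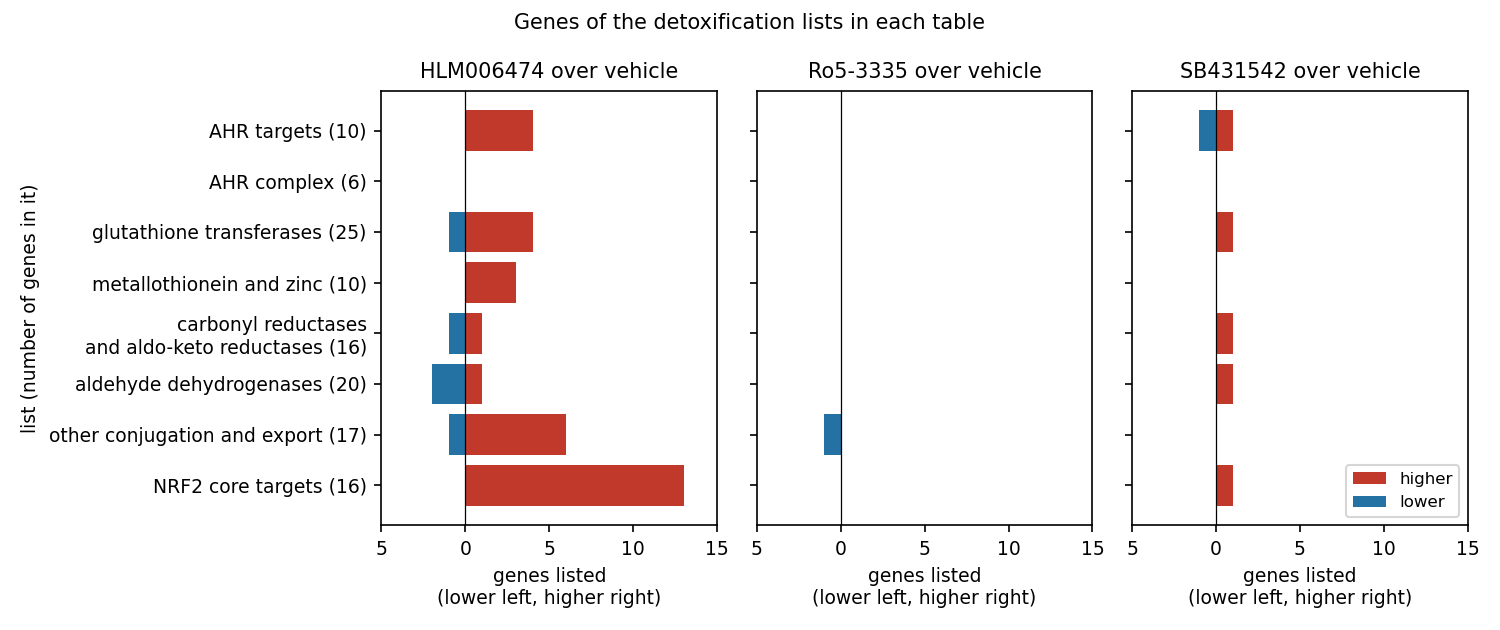
Number of genes listed as higher (red, right of 0) or lower (blue, left of 0) in each table (x axis) for 7 detoxification lists and the NRF2 core list (y axis, list size in brackets), for HLM006474, the RUNX1 inhibitor and SB431542 from left to right. Under HLM006474 13 of 16 NRF2 core genes and 4 of 10 AHR targets are higher, beside 1.42% of all genes tested. The RUNX1 inhibitor shows 1 gene, lower, where 2.93% of all genes tested were listed, and for SB431542 4.93% were.

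Beside these, 13 of 16 NRF2 core targets were higher under HLM006474, where 1.42% of all genes tested were listed as higher. Their median log2 fold change was 0.97, with a range of 0.74 to 2.77. Srxn1, Gclc and Hmox1 had the lowest adjusted p of them. None of the 10 genes is on that list as it was written, and Nqo1 is the gene it shares with the AHR targets. Absence from the list does not mean that a gene is no NRF2 target, so the lists do not separate the 2 responses. Under SB431542 1 of the 16, or 6.25%, was listed, beside 4.93% of all genes tested. It was Slc7a11, at 0.80 ± 0.23 in the authors' deposited table. Under the RUNX1 inhibitor 0 were listed, beside 2.93% of all genes tested. Counts so near these shares are not read as a result for the 2 compounds.

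Some markers of other cells were listed too, beside 5.64% of all genes tested for HLM006474, 2.93% for the RUNX1 inhibitor and 4.93% for SB431542. Under HLM006474 8 of 12 oligodendrocyte lineage markers were lower, 3 of 12 microglia and macrophage markers were lower and 1, Lyz2, higher, and 3 of 10 fibroblast and mural markers were lower. Under SB431542 4 of 12 microglia and macrophage markers were lower and 2 higher, with Cx3cr1 at -2.21 ± 0.081 in the authors' deposited table for that compound. Of the fibroblast and mural markers SB431542 had 2 of 10 lower, Col1a1 and Acta2, and the RUNX1 inhibitor 1 of 10 lower, Acta2, which was lower under HLM006474 as well. The oligodendrocyte lineage marker Cspg4, at -1.04 ± 0.14 in the authors' deposited table, was the 1 of 12 lower under SB431542. Of 12 astrocyte markers each table held 1, lower: Fabp7 under HLM006474 and the RUNX1 inhibitor, and Kcnj10 under SB431542. Neuron markers had 1 of 8 lower under HLM006474 and 1 of 8 under the RUNX1 inhibitor, endothelial markers 1 of 8 lower under the RUNX1 inhibitor and 1 of 8 under SB431542, and Müller glia markers 1 of 8 lower under the RUNX1 inhibitor. In these short lists 1 gene is 8.33% to 12.5% of a list, so a list with a single gene is not read as a change of that cell type. Levels per group of unlisted markers were not analysed here, and the part of these cells in the changes of the detoxification genes was not tested.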

How the data were processed

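The deposited files are 3 result tables, 1 for each compound against vehicle, and hold no values per sample. The submitters' processing notes name CASAVA 1.8, STAR 2.7, DESeq2 1.30.1 and the build GRCm38. Nothing read here names the read counter, its gene annotation or the strandedness. For each gene the authors' deposited tables give a mean normalised count (a signal level over all libraries), a log2 fold change and its standard error on the log2 scale, a Wald score, a p-value and an adjusted p-value, as their headers say. A gene in 2 tables has an identical mean count in both.

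The 10 genes, the lists and the tests were chosen with earlier results of these data known. All 10 genes are named, with every listed gene of the detoxification lists and the 3 NRF2 targets of lowest adjusted p under HLM006474. Slc7a11 and the markers named were chosen after their values were seen. The number tested is the smallest that makes the rank implied by p and adjusted p whole within 0.02, which held for 86.7%, 85.4% and 88.3% of ranks checked for HLM006474, the RUNX1 inhibitor and SB431542. Intervals are 95%, from the authors' standard errors. Differences between compounds were tested with a 2-sided z test whose error leaves out the shared vehicle samples, with Benjamini-Hochberg adjustment over all genes in both tables. The 1-sided test against a table's limit was added after the data were seen. It takes for the unlisted gene the standard error from the table that lists it. Its error also leaves out the shared vehicle samples. Genes under the smallest mean count of the table that lacks them were left out. The 2-sided test, the 1-sided test and the recovery of the number tested were checked on simulated data. Exon lengths, overlaps and shared 50-base stretches come from GENCODE M21, and promoters from RefSeq (GRCm38.p6), which matched 8 of 10 genes. Python 3.11.15, pandas 2.3.3 and SciPy 1.17.1 were used.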

Additional observations from a re-analysis of the deposited data

Results flagged for a closer look

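Cyp1b1 responded in opposite directions to HLM006474 and SB431542, and the difference in log2 fold change was 1.22 ± 0.049 (2-sided z test, adjusted p = 9.59e-137). Cbr2 also differed between these compounds, in the other direction, by -2.02 ± 0.46 (2-sided z test, adjusted p = 7.83e-05), on a mean count of 30.2. Both comparisons use the same vehicle samples. Both genes passed the limits of the 2 tables in opposite directions, which alone sets the compounds apart, so the test adds only the size.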

How the results depend on the processing

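With an absolute log2 fold change of at least 1, the genes listed would be 1 of 10 for HLM006474 (Aldh3a1) and 1 for SB431542 (Ahrr), in place of 7 and 2. For SB431542 an adjusted p under 0.01 left 1 (Cyp1b1), and a mean normalised count of at least 100 left 1 (Cyp1b1). For HLM006474 each of these last settings left 6, without Aldh3a1, and for the RUNX1 inhibitor the number was 0 under all 3 settings. These changes follow from the limits themselves. The differences between HLM006474 and SB431542 for Cyp1b1 and Cbr2 passed with the error reduced for shared vehicle samples and with Bonferroni adjustment. A smaller error can only lower p, and both genes were already listed in opposite directions, so these settings add little. No difference could be given for the pairs with the RUNX1 inhibitor, since none of the 10 genes was in its table. No paired analysis was possible because the files hold no values per sample, and leaving out replicates, another scaling and other counting were not run for the same reason. These tables do not give library depth.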

Other observations

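Other genes of drug-metabolising families were in the tables, named here after their values were seen. Adh7, an alcohol and retinol dehydrogenase, stood at 2.12 ± 0.84 under HLM006474 and 2.46 ± 0.83 under SB431542 in the authors' deposited tables, on a mean count of 15.2. These comparisons share the vehicle samples. The flavin monooxygenase genes Fmo1 and Fmo2 were lower under HLM006474, at -0.79 ± 0.15 and -0.81 ± 0.27 in the authors' deposited table. Among cytochrome P450 genes, Cyp4f18, a leukotriene hydroxylase of myeloid cells, stood at -4.15 ± 0.40 under SB431542 with a mean count of 66.2 in the authors' deposited table. Cyp2c23 was higher under SB431542, at 1.996 ± 0.59 on a mean count of 8.87, in the authors' deposited table. Cyp4f15 stood at -2.96 ± 0.93 under HLM006474 on a mean count of 7.97, in the authors' deposited table. Under the RUNX1 inhibitor the carboxylesterase gene Ces1g stood at -1.22 ± 0.30 and the epoxide hydrolase gene Ephx4 at -0.86 ± 0.26 in the authors' deposited table. Further genes of these families were also listed. Under HLM006474 Ugt1a6b and Abca13 were higher, and Ugt2b5, Ugt8a, Abca4 and Abcb9 lower. Under SB431542 Sult2b1, Abcg3 and Abcb4 were higher and Abca7 lower. Abca4 was lower under the RUNX1 inhibitor as well.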
